A study of Oryza sativa with 4 samples.

Results

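Rice genes for the bZIP transcription factors of abscisic acid (ABA) signalling and for enzymes that make or break down ABA were examined in young panicles of wild type (WT) and the mutant emf2b-1. The 10 genes were chosen by name from their known roles, with earlier results of these data known: 6 bZIP factor genes and 4 ABA turnover genes. All 10 have a row among the 45027 loci of the deposited count table, and all 10 had enough reads to be tested among 22615 loci. Their identifiers are LOC_Os02g52780 (bZIP23, chromosome 2), LOC_Os06g10880 (bZIP46, chromosome 6), LOC_Os09g28310 (bZIP72, chromosome 9), LOC_Os08g36790 (TRAB1, chromosome 8), LOC_Os01g64730 (ABF1, also called bZIP12, chromosome 1) and LOC_Os01g64000 (ABI5, also called bZIP10, chromosome 1) for the factors. For turnover they are LOC_Os03g44380 (NCED3, chromosome 3), LOC_Os02g47470 (ABA8ox1, chromosome 2), LOC_Os08g36860 (ABA8ox2, chromosome 8) and LOC_Os09g28390 (ABA8ox3, chromosome 9).

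Both genotypes are in the cultivar Dongjin, with 2 RNA-seq libraries each, from greenhouse panicles of 0.3 to 1.5 cm at inflorescence stage 7. EMF2B encodes a subunit of Polycomb repressive complex 2, which places the repressive histone mark H3K27me3. No agent was applied according to the labels. The labels do not describe the emf2b-1 lesion or how many panicles made a library, and the extraction text speaks of wild type for all 4 libraries.

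ABA is a plant hormone of drought responses and of seed maturation and dormancy. It is cut from carotenoid precursors by 9-cis-epoxycarotenoid dioxygenases (NCEDs) and inactivated by ABA 8'-hydroxylases of the CYP707A family (ABA8ox). Bound ABA holds its PYL receptors on clade A protein phosphatases (PP2Cs), which frees SnRK2 kinases to phosphorylate bZIP factors, and these bind ABA-responsive elements in promoters of genes such as dehydrins. NCED, ABA8ox and PP2C genes are themselves known to be induced by ABA.

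Libraries are called by their barcodes, ACCC and CGTA for WT, GAGT and TTAG for emf2b. The WT libraries held 25382519 and 32087683 reads, and the emf2b libraries 12932305 and 16926873. EMF2B fell in the mutant, from 37.1 and 38.8 counts-per-million (CPM) in WT to 9.90 and 11.9 CPM (log2 fold change of -1.83 with an SE of 0.21 and an edgeR adjusted p = 0.00805, and 0.0572 without ACCC and 0.0897 without CGTA). Of 10 young panicle marker genes, 4 fell, 3 did not pass the test and 3 had too few reads to be tested. The 3 that did not pass, OsMADS14, OsMADS15 and OsMADS34, had both emf2b libraries above both WT libraries, 2 of them at an unadjusted p under 0.05, and DESeq2 called 1 panicle marker higher and 4 lower. Of the untested markers, FZP and G1 had 2 reads each over all 4 libraries, so these panicle markers were nearly absent. The panicle markers summed to 387 and 375 CPM in emf2b and to 463 and 581 CPM in WT. The 6 green leaf markers summed to 76.3 CPM in GAGT, 126 in TTAG, and 74.5 and 76.8 in WT. The 8 seed markers summed to 8.35 to 11.2 CPM in all libraries, mostly from GluA1 and GluA2, and 3 of the 8 had reads enough for a test. GluA2, OLE18, REG2 and Wx had both emf2b libraries above both WT libraries, OLE16 had both below, and the other seed markers overlapped. REG2, Wx and OLE16 had at most 8 reads in any library and were not tested, and OLE18 had 5 reads in each WT library. Of all tested loci, 32.5% had both emf2b libraries above both WT libraries and 24.6% had both below. By edgeR 0 of the green leaf and seed markers passed (1 of each list was higher at an unadjusted p under 0.05, and 0 with DESeq2). In panicle tissue a change in cell number and a change in RNA per cell cannot be told apart.

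The ABA 8'-hydroxylase genes ABA8ox1 and ABA8ox3 rose in emf2b, while 7 of the 10 genes did not pass the test. The factor gene ABI5 was also called higher, but it has few reads and entered the test only through the emf2b libraries, where it is high. A gene was called where its edgeR p, adjusted over all tested loci, was under 0.05, and 11.5% of all tested loci were called higher and 1.86% lower. None of the 10 was called lower by edgeR or DESeq2, and 0 were lower at an unadjusted p under 0.05. The 3 higher calls became 2 without emf2b GAGT, 5 without emf2b TTAG and 0 without either WT library, or 2 without either WT library where the low-count filter was run again. Nearly all calls over the whole table also ended without either WT library when the filter was not run again. This loss is therefore not particular to the 10 genes. Both emf2b libraries lay above both WT libraries for 4 of the 10, near the share of 32.5% over all tested loci. They lay below for 1 of the 10, against 24.6%. ABI5 is 1 of the 4, and the way it passed the filter made this certain. The median log2 fold change was 1.25 over the 10 genes and 0.01 over all tested loci. It was 2.46 over the 3 ABA8ox genes and 0.21 over the 6 bZIP factor genes. ABI5 counts in the medians over the 10 genes and over the 6 factor genes.

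**Figure D1:**
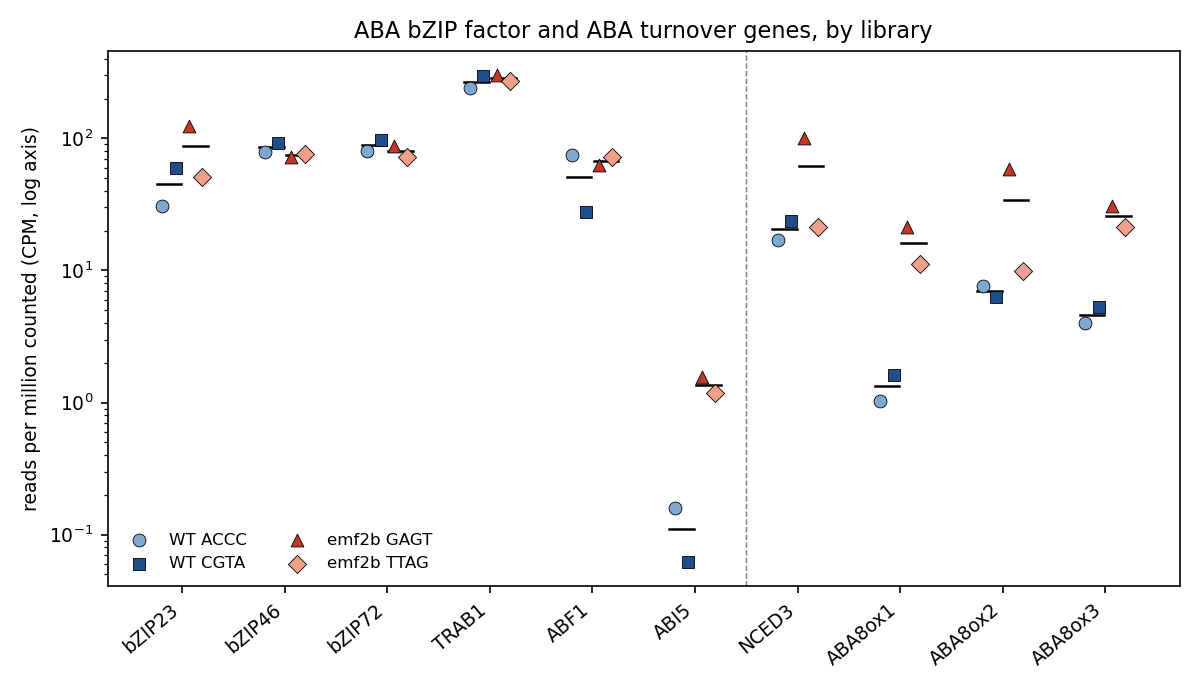
Level (CPM, log axis) of each gene in each of the 4 libraries; symbols are single libraries, short bars are group means (n = 2), and the dashed line parts bZIP factors from turnover genes. The ABA8ox1 and ABA8ox3 symbols of emf2b lie above those of WT, while NCED3 is high in emf2b GAGT alone; heights of different genes are not comparable because CPM is not divided by gene length.

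The ABA breakdown genes ABA8ox1 and ABA8ox3 had the lowest adjusted p of the 10 genes. ABA8ox1 stood at 21.2 CPM in GAGT and 11.2 in TTAG, against 1.02 in ACCC and 1.62 in CGTA. Both mutant libraries were high and the groups did not overlap. Averaged by genotype (± SD, n = 2), emf2b had 16.2 ± 7.09 CPM and WT 1.32 ± 0.42 CPM. The fold fitted by edgeR with TMM scaling was 11.9 (log2 fold change of 3.57 with an SE of 0.43 and an edgeR adjusted p = 0.0101). The reads behind it were 274 and 189 in emf2b and 26 and 52 in WT.

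ABA8ox3 stood at 30.9 CPM in GAGT and 21.1 in TTAG, against 3.98 in ACCC and 5.30 in CGTA. Again both mutant libraries were above both WT libraries. The emf2b mean was 26.0 ± 6.92 CPM and the WT mean 4.64 ± 0.93 CPM (± SD, n = 2), with a fitted fold of 5.48 (log2 fold change of 2.46 with an SE of 0.30 and an edgeR adjusted p = 0.0101). The ABA8ox1 and ABA8ox3 calls held without either emf2b library, with log2 fold changes of 3.01 and 2.13 without GAGT and 3.98 and 2.72 without TTAG. Without WT ACCC both had an adjusted p of 0.0572, and without WT CGTA 0.0897; with the low-count filter run again on the 3 libraries left, both stayed called (adjusted p from 0.0279 to 0.0401).

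ABA8ox2, the remaining hydroxylase gene, differed between the mutant libraries. It stood at 58.7 CPM in GAGT but 9.93 in TTAG, against 7.64 in ACCC and 6.26 in CGTA. GAGT was far above the rest, and TTAG was only a little above WT. The log2 fold change of 2.28 ± 0.71 (SE) did not pass the test (edgeR adjusted p = 0.0813), with a 95% interval of 0.60 to 3.95 that is not corrected for the number of loci tested. It was 0.45 without GAGT (adjusted p = 0.445) and 3.07 without TTAG (adjusted p = 0.000101). Whether ABA8ox2 differs in its response from ABA8ox1 or ABA8ox3 was not tested.

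**Figure D2:**
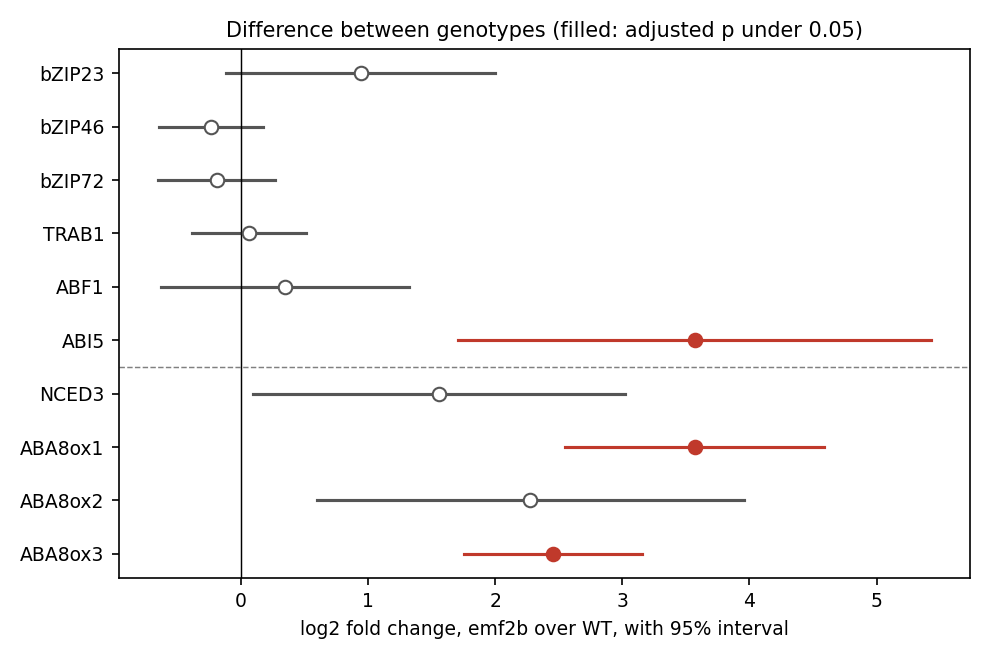
Log2 fold change of each gene, emf2b over WT, from the edgeR fit on all 4 libraries, with its 95% interval as a bar; filled points have an adjusted p under 0.05. ABI5, ABA8ox1 and ABA8ox3 are filled, and the intervals of bZIP46, bZIP72 and TRAB1 are the narrowest around 0.

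NCED3, for an enzyme of the committed step of ABA synthesis, was also unequal between the mutant libraries. It stood at 101 CPM in GAGT and 21.5 in TTAG, against 17.1 in ACCC and 23.8 in CGTA. TTAG lay inside the WT range and GAGT well above it, so the groups overlapped. Averages (± SD, n = 2) came to 61.4 ± 56.4 CPM for emf2b against 20.5 ± 4.74 CPM for WT (log2 fold change of 1.56 with an SE of 0.62 and an edgeR adjusted p = 0.154). The log2 fold change was 0.01 without GAGT (adjusted p = 0.984) and 2.29 without TTAG (adjusted p = 0.000464).

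Reads of NCED3 were also set against the summed reads of the 3 ABA8ox genes in the same library, a measure chosen after the values were seen. There were 0.913 NCED3 reads per ABA8ox read in emf2b GAGT and 0.509 in emf2b TTAG. WT ACCC had 1.36 and WT CGTA 1.81. Both mutant libraries were lower than both WT libraries, also GAGT with its high NCED3 level. The ABA8ox sum holds ABA8ox1 and ABA8ox3, which were called higher, so the ratio is not separate from those calls. The mean ratio was 0.711 ± 0.286 in emf2b and 1.58 ± 0.318 in WT (SD, n = 2 each). An exact permutation test gave a two-sided p = 0.333, the smallest that 2 against 2 libraries allow, so it could not decide. Gene length enters every library alike, so the ratio compares libraries and not the amounts of the 2 kinds of transcript.

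Among the bZIP factor genes, ABI5 had the fewest reads and was the only one called. Its product is known as a regulator of seed and stress genes. It had 20 and 20 reads in emf2b GAGT and TTAG and 4 and 2 in WT ACCC and CGTA, or 1.55, 1.18, 0.158 and 0.0623 CPM. Both mutant libraries were higher than both WT libraries. The low-count filter asked for about 0.473 CPM in at least 2 libraries, which ABI5 reached in both emf2b libraries and in neither WT library. A locus that passes in this way has to differ, and 1744 of the 2651 such loci were called higher, so the call is no support for a change. The other 9 genes reached the limit in all 4 libraries. The depth-adjusted read ratio of emf2b to WT was 12.8, with an exact 95% binomial interval of 5.41 to 37.0 for counting error only (log2 fold change of 3.57 with an SE of 0.79 and an edgeR adjusted p = 0.0296). At the 9379 loci with no WT read, the 95th percentile of emf2b reads was 5 in GAGT and 11 in TTAG. The 99th was 10 and 22, so the 20 reads of ABI5 lay above it in GAGT and below it in TTAG. After emf2b reads were lowered by the 95th percentile, the log2 fold change of ABI5 was 2.98 (edgeR adjusted p = 0.140). Higher calls over the whole table then went from 2596 to 585. The call also ended when any of the 4 libraries was left out: the adjusted p was 0.153 without GAGT, 0.0784 without TTAG, 0.0618 without ACCC (log2 fold change 4.27) and 0.130 without CGTA (2.98).

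The remaining factor genes did not pass the test. TRAB1, whose product was found as a partner of the seed regulator VP1, stood at 302 CPM in GAGT and 274 in TTAG, against 239 in ACCC and 299 in CGTA. The groups overlapped, with a log2 fold change of 0.07 ± 0.19 (SE; edgeR adjusted p = 0.868) and a 95% interval of -0.38 to 0.52. Its sign turned to -0.03 without GAGT and to -0.11 without ACCC. bZIP72, a factor linked to drought tolerance, stood at 87.2 CPM in GAGT and 72.2 in TTAG, against 80.7 in ACCC and 97.3 in CGTA, also overlapping (log2 fold change -0.19 ± 0.20 SE, 95% interval -0.65 to 0.27, edgeR adjusted p = 0.589).

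bZIP46, a drought factor that SnRK2 kinases activate, stood at 72.2 CPM in GAGT and 76.4 in TTAG, against 78.9 in ACCC and 92.0 in CGTA. Both mutant libraries were slightly below both WT libraries, but the difference was small (log2 fold change -0.23 ± 0.17 SE, 95% interval -0.64 to 0.17, edgeR adjusted p = 0.440). For these 3 factors the intervals exclude a 2-fold change in either direction; they do not show equal levels.

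bZIP23, a central drought and ABA factor, was less even. It stood at 125 CPM in GAGT and 51.4 in TTAG, against 31.0 in ACCC and 59.2 in CGTA. GAGT was the highest library, and TTAG lay between the WT libraries. The log2 fold change was 0.94 ± 0.45 (SE, 95% interval -0.11 to 2.0, edgeR adjusted p = 0.231), 0.13 without GAGT (adjusted p = 0.857) and 1.46 without TTAG (adjusted p = 0.0200).

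ABF1, another stress-responsive ABA factor, differed mostly within WT. It stood at 74.9 CPM in ACCC but 27.8 in CGTA, with 62.9 in GAGT and 72.0 in TTAG. CGTA was low and the other 3 libraries were close. The log2 fold change was 0.35 ± 0.42 (SE, 95% interval -0.63 to 1.33, edgeR adjusted p = 0.646). It was 1.22 without ACCC (adjusted p = 0.0574) and -0.23 without CGTA.

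**Figure D3:**
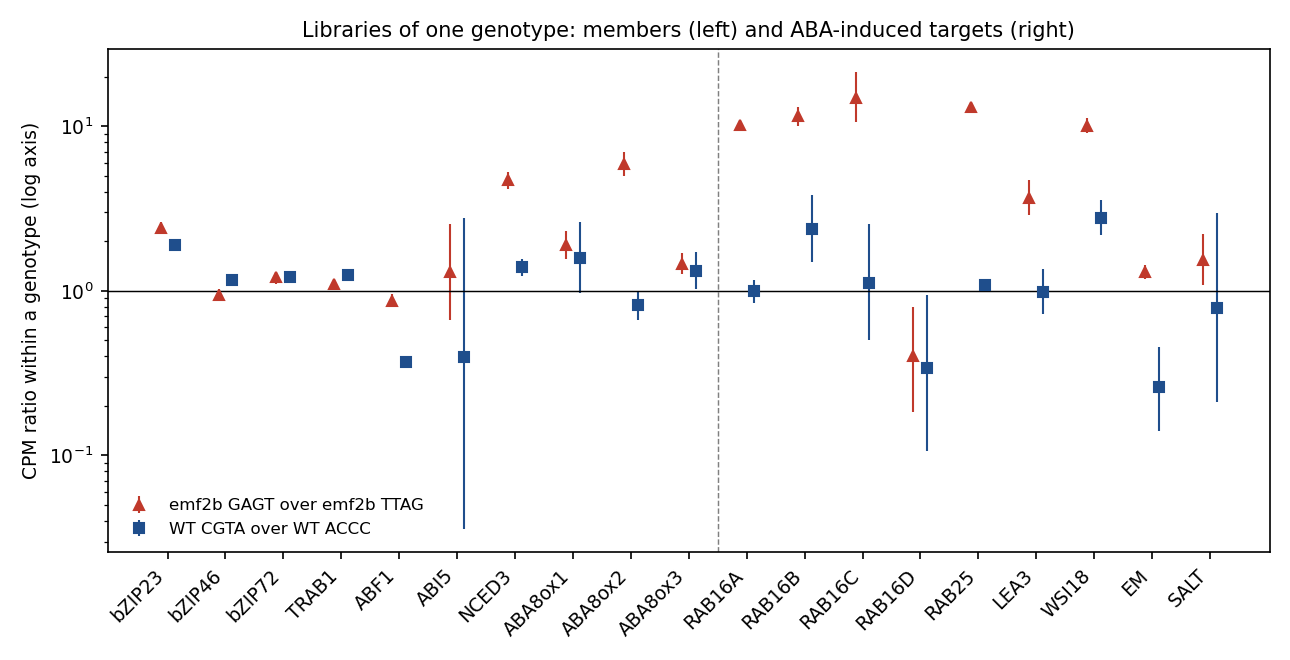
CPM ratio between the libraries of 1 genotype (log axis), emf2b GAGT over TTAG as triangles and WT CGTA over ACCC as squares, with exact 95% intervals for counting error; the line at 1 marks equal libraries. NCED3 and ABA8ox2 share high GAGT over TTAG ratios with the ABA-induced genes RAB16A to RAB16C, RAB25 and WSI18, while the triangles of ABA8ox3, ABI5 and EM lie lower, at 1.46, 1.31 and 1.30. Of the other ABA-induced genes, LEA3 lies at 3.69, SALT at 1.55 and RAB16D at 0.4, on the opposite side of the line.

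Among the 10 genes the mutant libraries differed most from each other at ABA8ox2, NCED3 and bZIP23. The GAGT over TTAG ratio was 5.91 for ABA8ox2, 4.71 for NCED3 and 2.43 for bZIP23, with exact 95% counting intervals of 5.0 to 7.03, 4.19 to 5.30 and 2.23 to 2.64. Of all tested loci, 0.442% had a higher log2 ratio than ABA8ox2, 0.672% a higher one than NCED3 and 2.48% a higher one than bZIP23. The ratio was 1.90 for ABA8ox1 and 1.46 for ABA8ox3, and it lay from 0.874 to 1.31 for TRAB1, bZIP72, bZIP46, ABF1 and ABI5. In WT the largest difference between libraries among the 10 genes was that of ABF1, with a ratio of 0.372 for CGTA over ACCC (0.343 to 0.403), and 8.37% of tested loci differed more. The part of depth or of the RNA in single libraries in these patterns was not tested.

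The nearest member by pattern over the 4 libraries was found from log2(CPM + 0.5) values centred on each gene's mean. By Euclidean distance NCED3 and ABA8ox2 were nearest to each other (0.785), as were ABA8ox1 and ABA8ox3 (0.832) and bZIP46 and bZIP72 (0.254). bZIP23 was nearest to NCED3 (0.796), TRAB1 to bZIP72 (0.281), ABI5 to ABA8ox3 (0.877) and ABF1, with the largest distance, to TRAB1 (1.33). The added 0.5 exceeds both WT values of ABI5, 0.158 and 0.0623 CPM, and so shrinks its differences between libraries in this measure. Among other listed ABA genes, TRAB1 was closest to SAPK4 (0.140) and bZIP62 (0.203), bZIP72 to ABA2 (0.161) and bZIP40 (0.241), and bZIP46 to SAPK8 (0.0898) and PYL3 (0.122). These are descriptions over 4 libraries that share their depth and scaling.

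Some of the 10 genes are near neighbours. By identifier order, TRAB1 and ABA8ox2 lie close together on chromosome 8, with 6 table loci between them, and bZIP72 and ABA8ox3 on chromosome 9, with 5 between. In each pair the hydroxylase gene had the larger log2 fold change, 2.28 against 0.07 and 2.46 against -0.19. Of the loci in between, 1 was tested on chromosome 8 and not called, and 2 were tested on chromosome 9, of which 1 was called higher. ABA8ox1 lies beside NCED1 on chromosome 2, with 3 loci between; NCED1 had 0 and 2 reads in emf2b and 0 and 4 in WT, too few to be tested. ABI5 and ABF1 lie on chromosome 1 with 61 table loci between them, of which 35 were tested, 7 were called higher and 0 lower. The median log2 fold change of these 35 was 0.02. Over all tested loci 11.5% were called higher and 1.86% lower.

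**Figure D4:**
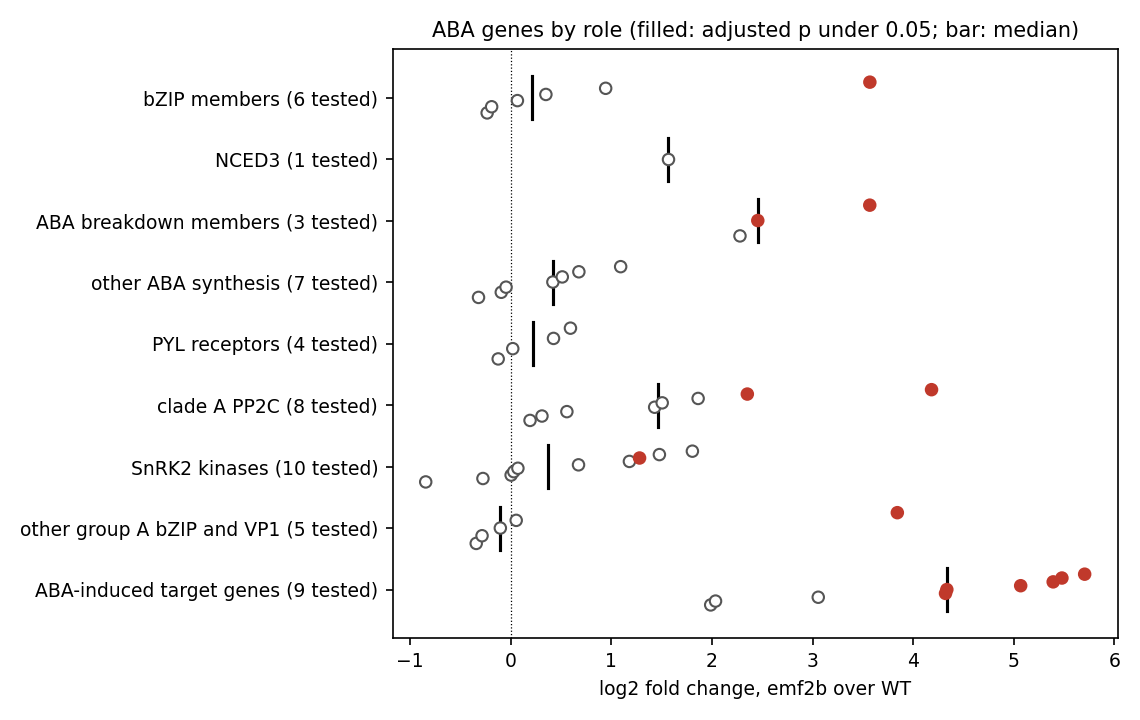
Log2 fold change, emf2b over WT, of each tested ABA gene by role; points are genes, filled where the adjusted p is under 0.05, and black bars are medians. The ABA-induced target genes and the ABA8ox genes lie to the right of 0, while receptors and most bZIP factors lie around it.

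The rest of the ABA pathway was followed in 6 lists of 51 genes, of which 50 have a row in the table, 43 had reads enough for a test and 1, PYL4, was not analysed here. These lists were chosen with earlier results of these data known. By edgeR 10 genes rose, 0 fell and 33 did not pass, against 11.5% of all tested loci called higher and 1.86% lower. Among the 10, VP1 and the ABA-induced gene SALT passed the low-count filter only through the emf2b libraries, so their calls are no support for a change. At an unadjusted p under 0.05, 18 were higher and 1 lower, and with DESeq2 11 were higher and 0 lower. The median log2 fold change was 0.67. The 10 became 6 without GAGT, 18 without TTAG, 1 without ACCC and 0 without CGTA, while calls over the whole table also went to 45 higher and 9 lower without ACCC and to 0 without CGTA. They were 2 after emf2b reads were lowered by the 95th percentile.

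In the 4 lists upstream of the bZIP factors 3 of 29 tested genes were called higher, or 10.3%, near the 11.5% of all tested loci. Of 7 tested synthesis genes other than NCED3, 0 rose and 0 fell by edgeR and by DESeq2 (1 higher and 0 lower at an unadjusted p under 0.05; median log2 fold change 0.42). ABA3, for the enzyme that sulfurates the molybdenum cofactor used in the last step, had -0.09 ± 0.22, and PSY1, a phytoene synthase gene, 0.51 ± 0.23 (SE). The other NCED genes, named after their values were seen, were weak: NCED1, NCED2 and NCED4 had at most 9 reads in any library, and NCED5 had 8 to 25. Of 4 tested PYL receptor genes 0 were called by either tool, and 0 at an unadjusted p under 0.05. PYL11 had a log2 fold change of 0.42 ± 0.30 (-0.10 without GAGT) and PYL3 -0.13 ± 0.20 (SE).

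Of 8 tested clade A phosphatase genes, whose products hold the pathway off, 2 rose and 6 did not pass (median log2 fold change 1.47). PP2C68 stood at 12.99 CPM in GAGT and 2.36 in TTAG, against 0.276 in ACCC and 0.530 in CGTA (log2 fold change of 4.18 with an SE of 0.87 and an edgeR adjusted p = 0.0258). PP2C30 stood at 41.7 CPM in GAGT and 13.7 in TTAG, against 3.31 in ACCC and 7.32 in CGTA (2.35 ± 0.58 SE, with an edgeR adjusted p = 0.0390). GAGT was the highest library for both genes, and the groups did not overlap. Without GAGT they had log2 fold changes of 2.47 and 1.31 (adjusted p = 0.0988 and 0.0922), and both calls also ended without either WT library.

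Of 10 tested SnRK2 kinase genes 1 rose and 9 did not pass (median 0.37). SAPK9 stood at 80.0 CPM in GAGT and 45.7 in TTAG, against 25.9 in ACCC and 24.8 in CGTA (log2 fold change of 1.28 with an SE of 0.29 and an edgeR adjusted p = 0.0309). Both mutant libraries were above WT, but the log2 fold change without GAGT was 0.79 (adjusted p = 0.0705), and the call ended without either WT library. Of the other factor genes, bZIP40, bZIP42, bZIP62 and FD1 did not pass, and VP1, the B3-domain partner of TRAB1, was called higher. Like ABI5, VP1 passed the low-count filter only through the emf2b libraries. VP1 had 9 and 52 reads in emf2b GAGT and TTAG and 4 and 3 in WT (3.84 ± 0.94 SE, with an edgeR adjusted p = 0.0381). Here TTAG was the higher library, and without it the value was 2.43 (adjusted p = 0.328); the call ended too without either WT library.

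Among 9 genes known to be induced by ABA, 6 rose and 3 did not pass, against 11.5% of all tested loci called higher. All 9 had both emf2b libraries above both WT libraries, against 32.5% of all tested loci (median log2 fold change 4.33). SALT, among the 6, passed the low-count filter only through the emf2b libraries, as ABI5 and VP1 did, so its call is no support for a change. Its place among the 9 without overlap was made certain in the same way, and the median of 4.33 is its own value. It had 70 and 59 reads in emf2b GAGT and TTAG and 6 and 6 in WT. The dehydrin genes RAB16A, RAB16B and RAB16C lie close together on chromosome 11 by identifier, and reads could be shared between them. Without LOC_Os02g44870, listed as RAB25, which did not pass the test and supplied most of the list's reads in every library, the other 8 genes summed to 1330 CPM in GAGT, 180 in TTAG, 21.1 in ACCC and 26.5 in CGTA. Both emf2b sums were above both WT sums, which follows from the order of each gene, and GAGT was the highest. RAB16A alone gave 798 CPM of the GAGT sum and 78.2 CPM of the TTAG sum. RAB16A stood at 798 CPM in GAGT and 78.2 in TTAG, against 10.4 in ACCC and 10.3 in CGTA (5.39 ± 1.01 SE, with an edgeR adjusted p = 0.0224). RAB16B stood at 170 CPM in GAGT and 14.8 in TTAG, against 1.02 in ACCC and 2.43 in CGTA (5.70 ± 1.13 SE, with an edgeR adjusted p = 0.0247). RAB16C had 32.5 CPM in GAGT and 2.19 in TTAG, against 0.473 in ACCC and 0.530 in CGTA (5.07 ± 1.18 SE, with an edgeR adjusted p = 0.0334). The GAGT over TTAG ratios of RAB16A, RAB16B and RAB16C were 10.2, 11.5 and 14.9, larger than that of NCED3. Without GAGT their log2 fold changes were 2.86, 3.03 and 2.05 (the last no longer called, adjusted p = 0.143), and all 3 calls ended without either WT library.

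EM, for an embryo-type LEA protein, had close values in the mutant libraries, as ABI5 did. It stood at 65.1 CPM in GAGT and 50.2 in TTAG, against 2.05 in ACCC and 0.530 in CGTA (log2 fold change of 5.48 with an SE of 0.56 and an edgeR adjusted p = 0.00659). Both mutant libraries were high and close to each other. The log2 fold change was 6.70 without ACCC and 4.74 without CGTA (adjusted p = 0.0850). The part of other tissues in the ABA gene differences was not tested.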

How the data were processed

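RNA-seq counts of 4 rice panicle libraries (2 WT, 2 emf2b) were used as deposited: whole-number read counts per gene model, 1 model per locus, not normalized. Per the labels' protocols, 10 ng of total RNA was amplified and read for 40 cycles. The submitters' processing notes list TopHat2 2.0.5 together with DESeq 1.10.1. For the counter, build, annotation release and strand use the labels give nothing, so reads of overlapping or near-identical genes may be mixed. Columns name genotype and barcode only, so each was assigned to its group. Libraries of 1 group differed beyond counting noise (chi-square per degree of freedom 39.7 in emf2b, 53.8 in WT); nothing says they are separate cultures or plants, so p-values measure only the spread between libraries, which may be technical.

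Loci passing filterByExpr (minimum count 10, minimum total 15) were fitted in edgeR 4.0.16 (R 4.3.3) with TMM scaling and the quasi-likelihood F test, group as the only term, two-sided, with Benjamini-Hochberg adjustment over all 22615 loci and a threshold of 0.05. Each SE was taken from F (size of the log2 fold change over its root), and 95% intervals used the fit's degrees of freedom. CPM was computed on the library totals, with no TMM factor. DESeq2 1.42.0 was an alternative. A floor of 3 reads equals 0.232 CPM in GAGT, 0.177 in TTAG, 0.118 in ACCC and 0.0935 in CGTA.

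Members and lists were chosen with earlier results of these data known. Named genes were all members, EMF2B, up to 4 called genes of each list by size of change (otherwise the 2 most abundant), and nearest patterns; other genes are named where a count is small. Names come from general knowledge of rice loci; of the 10 member names, 6 occur in a RefSeq table (assembly ASM3414082v1, another build, no coordinates used) on the chromosome of the identifier and bZIP46, bZIP72, ABF1 and ABI5 do not occur. Of 76 further names, 48 matched, 4 were on another chromosome (ABA2 and RAB25 of the ABA lists and GluA1 and GluA2 of the seed markers) and 24 were not found.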

Additional observations from a re-analysis of the deposited data

How the results depend on the processing

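No paired analysis was possible because the columns carry no replicate number. The 3 members called higher were 6 without the low-count filter and 0 to 5 with a library left out, and 0 were called lower in every alternative run. The median log2 fold change over all loci was 0.62 without the filter and 0.73 with DESeq2. More low-count loci enter both, and the reason for the shift was not tested. Calls over the whole table, 2596 higher and 421 lower, were 4294 and 1590 without the filter and 1256 and 190 at a minimum count of 30. With DESeq2, 700 were lower. After emf2b reads were lowered by the 95th percentile at loci with no WT read, they were 585 and 75. With a library left out they ranged from 0 to 2191 and from 0 to 603. The 10 higher calls of the 6 ABA lists were 16 without the filter, 6 at a minimum count of 30, 5 with robust dispersions, 2 after lowering and 0 to 18 with a library left out, and the 0 lower became 1 without the filter. TRAB1 turned to -0.06 without the filter and ranged from -0.11 to 0.22 with a library left out, ABF1 from -0.23 to 1.23, NCED3 from -0.03 to 2.30, ABA3 from -0.33 to 0.10 (0.00 after lowering) and PYL11 from -0.14 to 0.82. Lowering, and leave-outs with the filter run again, were chosen after seeing the data. With 3 libraries, 1 residual degree of freedom is left, and a lone library is assumed to vary like the other group. NCED3, ABA8ox2 and bZIP23 were also called higher without the filter. ABI5, with the fewest reads of the members, was not tested at a minimum count of 30 and stayed called with libraries thinned to equal depth (4.09, adjusted p = 0.0273), and its adjusted p ranged from 0.00771 to 0.228 over the alternatives. VP1 gave no value at a minimum count of 30, thinned or after lowering.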
